A study of Mus musculus with 6 samples.

Results

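Mouse embryonic fibroblasts (MEF, connective tissue cells grown from embryos) that lack Dot1L were compared with and without sodium arsenite, a salt of trivalent inorganic arsenic, to describe gene by gene how RNA levels in the null cells differed after exposure. A gene entered the comparison when its level was at least 1 RPKM (reads divided by gene length and by library depth) in either null library. Of the 37224 genes in the deposited table, 11531 met that rule, 11415 of them with a gene symbol. The rule did not use the difference between the libraries. Just inside it, 168 genes whose higher level was below 1.1 RPKM had log2 ratios from −1.06 to 1.06. Just outside, 172 genes had log2 ratios from −0.99 to 0.98.

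The null control group was untreated Dot1L-/- fibroblasts and the arsenite group was Dot1L-/- fibroblasts after 24 h of exposure, both on a C57BL/6 background. Wild-type fibroblasts of the same background, untreated or exposed, served as a second pair that shares no library with the null pair. Each group held 1 RNA library. The labels call the exposure low; doses of 5 and 10 µM appear in the treatment protocol next to 0 µM, and the concentration behind the sequenced libraries is not given in the sources used here. They call the cells primary, while the extraction protocol speaks of cell lines, and how the null was made and how many clones or embryos it stands for are likewise not given. The H3K27ac libraries of the series were not analysed here. With a single library in each group there is no replicate check, so every difference below is between 2 libraries, no test was run, and higher and lower mean a ratio of at least 2-fold on the scale log2((arsenite RPKM + 1)/(control RPKM + 1)).

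DOT1L is the enzyme that methylates lysine 79 of histone H3, a mark found along transcribed genes, and it works with the elongation machinery that releases RNA polymerase II. Trivalent arsenic binds thiols, depletes glutathione and displaces zinc from proteins. Cells are known to answer it with metal-binding metallothioneins, the NRF2 antioxidant program, heat shock proteins and the integrated stress response, in which phosphorylated eIF2alpha favours translation of ATF4, a factor that switches on amino acid synthesis, uptake and tRNA charging.

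Depth recovered from the RPKM values was 64699847 reads in the null control and 11879632 with arsenite, 5.45 times fewer. Genes above 0 numbered 18613 and 15313, and 15698 in the control once it was thinned to the arsenite depth. The 100 genes with the most reads took 20.6% of the control reads and 42.1% of the arsenite reads. Dot1l itself (ENSMUSG00000061589, chromosome 10, 80755101 to 80795461 in GRCm38) was not absent from the null libraries. It stood at 9.59 RPKM in the control and 1.24 with arsenite, against 30.4 and 5.71 in wild type. A total per gene cannot show whether a part of the gene is missing. Of 13 fibroblast markers 10 passed the filter, 1 of them higher and 3 lower (median −0.78, length-removed 0.41). Vim, the intermediate filament of mesenchymal cells, went from 893 to 1001, while Thy1 and Fap were listed at 0 in both libraries. The summed level of the list went from 2300.04 to 12136 RPKM, nearly all of the difference from S100a4, a calcium-binding protein, which went from 949 to 10957. Of the marker lists of 9 other cell types, at most 4 genes of a list passed. Epcam, Myod1, Tie1 and Hbb-bs were listed at 0 in both libraries, and Fabp4, a fatty acid binding protein of adipocytes, went from 1.77 to 22.6 RPKM, while Adipoq and Plin1 stayed below 1. Other markers were present. Krt19, the 1 epithelial marker that passed, was higher, and the summed epithelial list went from 7.91 to 22.7. Neural and glial markers summed to 45.0 and 42.2, and cartilage and bone markers to 101 and 51.5. Cdh5 and Egfl7 of the endothelial list passed. In such bulk samples fewer cells of a type and less RNA per cell cannot be told apart.

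More genes were lower than higher with arsenite, and the direction followed gene length. Of all 11531 genes, 1908 were higher (16.5%) and 4666 lower (40.5%), together 57.0%, with a median log2 ratio of −0.66. At 8-fold or more the counts were 226 higher and 493 lower, and at 16-fold 77 and 72. In 134 of the genes past 2-fold the 95% counting interval of the read ratio held 1. Such intervals cover counting error only and leave out the spread between cultures and libraries, and reads without molecular identifiers are not independent molecules.

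Genes of 500 to below 1000 bases had a median log2 ratio of 1.35, those of 2000 to below 4000 bases −0.51, and those of at least 12000 bases −1.61. Among the shortest of these classes 65.02% were higher, and among the longest 75.5% were lower. The slope of the log2 ratio was −0.74 per doubling of length in the null and −0.68 in wild type. The plot of log2 ratio against length shows the trend that was subtracted for the values called length-removed below, which are given beside the deposited medians of most lists. After that step 2276 of 11193 genes were higher (20.3%) and 2371 lower (21.2%), together 41.5%. The share of higher genes among those past 2-fold, 29.02% as deposited, was 48.98% without the length trend, 54.4% with the median gene set to 0 and 45.02% after 75th percentile scaling. Setting the median to 0 adds 0.66 to each log2 ratio, and 75th percentile scaling adds 0.57 to that of an abundant gene. A list median between −0.66 and 0 is therefore above the median gene, though below 0. The filter itself fixes part of a direction, since a gene that passed through 1 library only can hardly differ the other way: of 827 genes below 1 RPKM in the control, 530 were higher and 0 lower. For some lists the number of members that passed in that way is given, and other lists hold such members too.

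**Figure D1:**
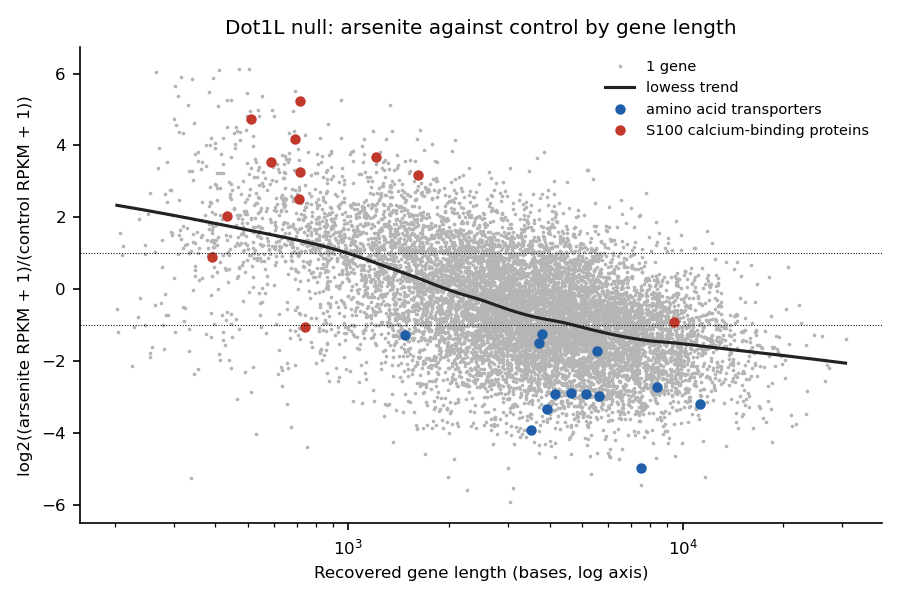
Log2 ratio of arsenite to control in Dot1L null cells (vertical axis) against recovered gene length in bases (horizontal log axis), 1 grey point per gene of at least 200 bases, with the lowess trend in black and dotted lines at 2-fold. The 13 amino acid transporters (blue) lie below the trend, and of the 12 S100 symbols (red) all but S100a7a and S100pbp lie above 0.

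Genes of amino acid supply and the integrated stress response were mostly lower. Over 4 lists of this program (stress regulators, serine and one-carbon enzymes, amino acid transporters, cytosolic tRNA synthetases), 54 of 60 genes were lower and 0 higher, with a median log2 ratio of −2.195. Length-removed, 44 were lower and 1 higher (median −1.71). In wild type 29 of the same genes were lower and 2 higher (median −0.88).

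Levels are given below in RPKM, control first and arsenite second. Atf4, the transcription factor at the centre of the response, went from 430.04 to 208. Atf3, a factor of the same bZIP family that ATF4 induces, was covered by 10311 control reads and 28 arsenite reads; from 80.3 to 1.19 RPKM it was 67.6-fold lower (95% counting interval 46.8 to 102). Trib3, a pseudokinase that feeds back on the pathway, went from 96.2 to 5.98, and Chac1, which degrades glutathione, from 52.1 to 7.66. Ppp1r15a (GADD34), which directs the dephosphorylation of eIF2alpha, went from 141 to 17.8, and Sesn2, a leucine sensor that restrains mTORC1, from 98.2 to 13.95. In this list 11 of 13 genes were lower. Ddit3, which encodes CHOP, from 172 to 94.8, and Nupr1, from 39.5 to 33.4, were the exceptions (log2 ratios −0.85 and −0.23).

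Of the serine, asparagine and one-carbon enzymes, all 14 that passed the filter were lower (median −2.43, length-removed −1.82). Cth, the enzyme that releases cysteine from cystathionine, had the lowest ratio of the program: 7981 reads and 54.5 RPKM in the control against 4 reads and 0.149 RPKM with arsenite. Phgdh, the entry enzyme of serine synthesis, went from 475 to 126, and the later steps Psat1 and Psph went from 182 to 63.7 and from 31.7 to 2.27. The mitochondrial folate enzymes Shmt2 and Mthfd2 went from 306 to 66.2 and from 179 to 12.3. Asparagine synthetase, Asns, went from 99.7 to 26.2 and was 3.81-fold lower (3.55 to 4.08). Across the whole list the log2 ratios ran from −5.59 to −1.34.

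Every one of the 13 transporters past the filter was lower too (median −2.91, length-removed −1.81, when 10 of them were lower), 4 having passed only through the control. Slc7a1, the arginine and lysine carrier, went from 119 to 2.81. Slc7a5, the light chain of the large neutral amino acid exchanger, went from 289 to 18.04, and Slc3a2, the heavy chain it pairs with, from 351 to 143. Slc7a11, which takes up cystine in exchange for glutamate, went from 10.7 to 0.269. The shared heavy chain was thus lower by less than either light chain.

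Among the cytosolic tRNA synthetases, 16 of 20 were lower (median −1.77, length-removed −1.06). The lowest were Iars for isoleucine from 78.3 to 5.73, Dars for aspartate from 39.5 to 3.26 and Eprs for glutamate and proline from 158 to 15.7. Gars, the glycine enzyme, went from 351 to 132. Rars, Qars, Kars and Cars were the ones past neither bound, with log2 ratios of −0.21, 0.24, 0.52 and −0.68. In wild type 4 of these 20 genes were lower and 1 was higher (median −0.55).

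**Figure D2:**
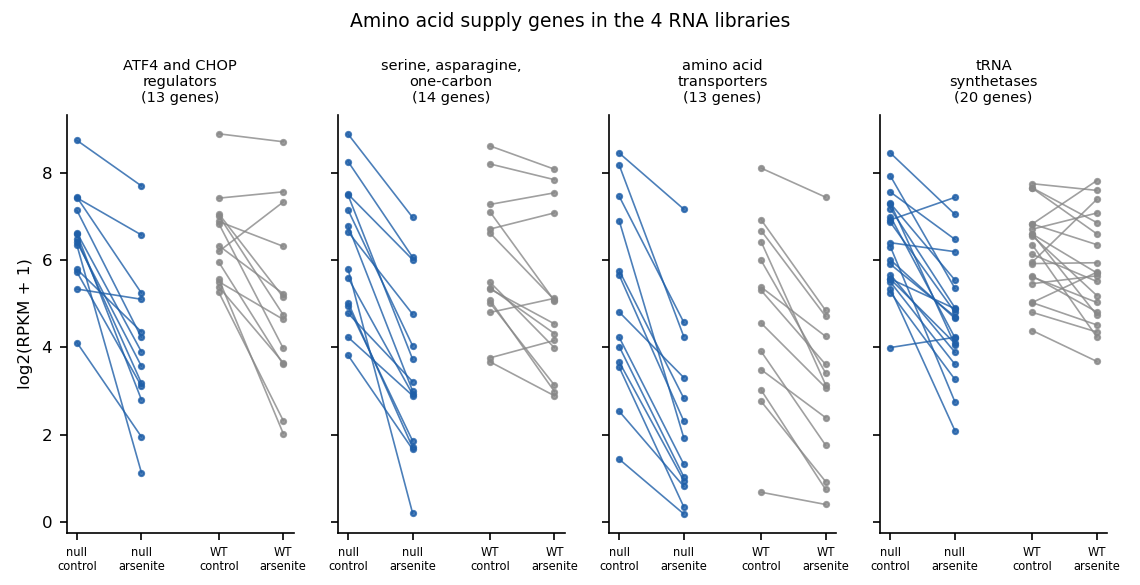
Levels of the genes of the 4 amino acid lists as log2(RPKM + 1) (vertical axis) in the null control, null arsenite, wild-type (WT) control and wild-type arsenite libraries, with 1 line per gene joining control and arsenite. In the null (blue) nearly all lines point down, 54 of 60 by at least 2-fold, while in wild type (grey) 29 do.

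ATF4 with a C/EBP partner binds a composite element whose core letters are TGATGNAA, read on either strand. Promoter windows from RefSeq (GRCm38.p6, 250 bases before to 50 after a start) were searched for it. It was present in 236 of 11000 windows of genes past the filter (2.15%) and in 14 of 54 windows of the amino acid lists (25.9%), which stand for 47 genes. Those lists were made up of genes known for this program, so a high share in them follows from that choice. It says nothing about ATF4 in these libraries. Of the other motifs searched in the same way, the metal response letters TGCACNC or TGCGCNC were in 5 of 12 windows of metallothioneins and zinc transport (41.7%, against 36.2% of the windows past the filter). The antioxidant response letters TGACNNNGC were in 14.3% of 21 glutathione S-transferase windows and 23.5% of 17 thioredoxin system windows, against 14.3%. The sterol response letters TCACNCCAC were in 1 of 24 cholesterol windows (4.17%), against 1.11%. The genes with a match to the ATF4 element were Aars, Asns, Atf3, Chac1, Gars, Got1, Iars, Nupr1, Pycr1, Slc1a4, Slc7a11, Tars, Trib3 and Yars. The windows of 4 of them, 1 to 250 bases before the start, are shown because they carry the element in a regulator, a glutathione-degrading enzyme, a biosynthetic enzyme and a synthetase; capitals mark the match, which is on the reverse strand where it reads TTNCATCA. They lie at chr1:191183334-191183583 (minus strand), chr2:119350992-119351241 (plus), chr6:7693210-7693459 (minus) and chr6:55037751-55038000 (plus).
Atf3: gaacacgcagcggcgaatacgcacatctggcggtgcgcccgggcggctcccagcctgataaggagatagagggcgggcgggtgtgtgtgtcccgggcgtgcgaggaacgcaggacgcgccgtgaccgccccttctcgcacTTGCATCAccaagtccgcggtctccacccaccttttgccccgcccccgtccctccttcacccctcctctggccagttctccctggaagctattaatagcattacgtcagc
Chac1: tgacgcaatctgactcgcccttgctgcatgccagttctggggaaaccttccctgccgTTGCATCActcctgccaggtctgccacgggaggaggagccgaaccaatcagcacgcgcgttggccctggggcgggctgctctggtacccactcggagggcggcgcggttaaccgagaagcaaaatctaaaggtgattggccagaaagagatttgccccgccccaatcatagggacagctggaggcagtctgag
Asns: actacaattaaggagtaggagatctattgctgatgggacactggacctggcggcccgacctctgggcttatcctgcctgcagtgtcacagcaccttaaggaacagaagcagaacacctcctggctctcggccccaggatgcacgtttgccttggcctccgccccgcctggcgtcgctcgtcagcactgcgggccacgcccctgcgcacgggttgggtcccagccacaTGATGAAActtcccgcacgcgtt
Gars: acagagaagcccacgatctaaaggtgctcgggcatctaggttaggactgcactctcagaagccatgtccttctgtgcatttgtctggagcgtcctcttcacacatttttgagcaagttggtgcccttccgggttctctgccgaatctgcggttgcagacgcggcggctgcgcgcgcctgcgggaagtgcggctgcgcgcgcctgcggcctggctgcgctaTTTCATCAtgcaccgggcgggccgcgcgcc
The match begins 110, 193, 23 and 30 bases before the start, in that order. All 4 genes were lower, Atf3 by the most and Gars by the least, at log2 ratios of −5.22, −2.62, −1.89 and −1.41. Of all genes of the 4 lists 54 of 60 were lower, and Nupr1, which also has a match, was within 2-fold (−0.23). A match of letters is a description of the window and does not show binding.

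Folding genes of the endoplasmic reticulum (ER) split. Of 21 genes 10 were lower and 3 higher (median −0.88, length-removed −0.27). The sensors Atf6 and Ern1 (IRE1) went from 18.7 to 1.25 and from 15.5 to 1.12, Herpud1, an ER degradation factor, from 131 to 8.48, and Hspa5, the chaperone BiP, from 585 to 163. Calr, the calcium-binding lectin chaperone, went from 334 to 1119.7, and Manf and Sdf2l1, small ER luminal proteins, from 20.3 to 69.2 and from 5.26 to 19.98. Of the luminal proteins named, Hspa5 was thus lower and Calr, Manf and Sdf2l1 higher.

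Cytosolic heat shock genes were mostly past neither bound: 1 was higher, 7 were lower and the other 14 of 22 were within 2-fold (median −0.25, which is −0.099 length-removed and above 0 when the median gene is set to 0). Cryab, the small heat shock protein alpha-B crystallin, was the higher one, from 75.7 to 477. The inducible Hspa1b went from 1.74 to 0.721, Hsp90aa1 from 243 to 240.5 and Hspa8, the constitutive HSC70, from 767 to 888. Hspd1, the mitochondrial chaperonin, was the lowest, from 429.9 to 65.6, and its partner Hspe1 went from 166 to 229.

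Metallothionein and zinc transport genes had no common direction: of 13 genes 4 were higher and 7 lower, and length-removed 3 and 3 (median −1.12, length-removed −0.12). Of the 13, 5 passed only through the control and 1 only through the arsenite library. Mt1 and Mt2, small cysteine-rich proteins that bind zinc and arsenic, went from 258 to 1924 and from 127 to 1220.4 RPKM, which is 7.46-fold (7.26 to 7.67) and 9.598-fold (9.26 to 9.96) higher. Mtf1, the zinc-sensing factor that drives them, went from 3.67 to 0.548, and Slc30a1, the zinc exporter under the same factor, from 7.59 to 0.60998. Among the importers, Slc39a6 went from 60.1 to 4.88 and Slc39a1 from 36.7 to 93.4. Length-removed, Mt1 and Mt2 kept log2 ratios of 1.31 and 1.69, and Mtf1 was at −0.12.

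Genes of heme and iron handling had 4 higher and 3 lower of 12 (median 0.39998, length-removed 0.497). Hmox1, heme oxygenase 1, was already at 405 in the null control and stood at 618 with arsenite (log2 0.61); in wild type it went from 82.4 to 416. Blvrb, a biliverdin reductase, went from 20.4 to 176, Fth1, the ferritin heavy chain, from 2311 to 7978 and Ftl1, the light chain, from 1552 to 1775. Tfrc, the transferrin receptor, and Ireb2, an iron-regulatory protein, went from 20.5 to 1.91 and from 18.3 to 1.32. Fth1 and Blvrb were thus higher, Ftl1 and Hmox1 within 2-fold, and Tfrc and Ireb2 lower.

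NRF2 and its partners numbered 10, of which 8 were lower and none higher (median −2.03, length-removed −1.296). Nfe2l2, which encodes NRF2, went from 24.6 to 4.88, its small Maf partner Mafg from 31.9 to 4.99 and the competing repressor Bach1 from 9.61 to 0.627. Keap1, the adaptor that targets NRF2 for degradation, was within 2-fold, from 13.8 to 17.4. Sqstm1 (p62), which binds Keap1, went from 547 to 132.

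The lists of glutathione synthesis and of glutathione transferases had medians of opposite sign. Of 12 genes of glutathione synthesis and cystine supply, 7 were lower and 3 higher (median −1.22, length-removed −0.91). Gclc and Gclm, the subunits of the rate-limiting glutamate-cysteine ligase, went from 44.5 to 10.3 and from 9.46 to 1.17, and Gsr, glutathione reductase, from 14.9 to 6.17. The higher members were the peroxidases Gpx1, Gpx4 and Gpx8, from 163 to 396, from 385 to 1708 and from 18.6 to 94.2. By contrast, 12 of 16 glutathione S-transferases, which attach glutathione to electrophiles, were higher and 1 lower (median 2.16, length-removed 1.48); 3 of them passed only through the arsenite library. On the log2 scale with its pseudocount Mgst3 had the highest ratio, from 11.9 to 206, 17.2-fold higher (15.9 to 18.6). Gstm2 went from 11.9 to 189 and Mgst2 from 1.13 to 25.7. As a plain ratio of RPKM, Mgst2 was above Mgst3, at 22.8-fold higher (19.9 to 26.1). The lower one was Gsto1, an omega transferase that can reduce methylated arsenic, from 230.5 to 101. Several Gstm genes are close paralogs whose reads the counting could split, so their single values are uncertain.

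Of the thioredoxin and peroxiredoxin system, 7 of 16 genes were higher and 4 lower (median 0.64, length-removed 0.97). Prdx5, Prdx2 and Prdx1, which reduce peroxides, went from 96.9 to 859, from 118 to 419 and from 74.4 to 189.9, and Sod1, the cytosolic superoxide dismutase, from 282 to 1642. Txnrd1, the selenoprotein that recycles thioredoxin, went from 138 to 17.8 and the mitochondrial Prdx3 from 59.2 to 16.97. Nqo1, a quinone reductase under NRF2, went from 5.54 to 14.7, against 14.4 and 132 in wild type. Genes of the pentose phosphate pathway and NADPH supply had 2 higher (Taldo1 and Pgls) and 4 lower of 12, with a median of −0.44 that was 0.32 length-removed and above 0 with either rescaling. G6pdx, the entry enzyme, went from 61.3 to 43.7.

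None of 9 genes of arsenic transport and metabolism was higher, and 5 were lower (median −1.18, length-removed −0.57). Their median length was 5480 bases. Among all genes of 4000 to below 8000 bases 54.4% were lower and 3.74% higher, so these counts do not set the list apart. Of the 9, 4 passed only through the control and could hardly be higher. The efflux pumps Abcc1 and Abcc4, which export glutathione conjugates, went from 19.9 to 3.58 and from 14.5 to 0.544. Slc2a1, a glucose carrier that also admits arsenite, went from 29.8 to 11.7, and N6amt1, a methyltransferase linked to arsenic metabolism, from 4.54 to 3.22.

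Sterol genes differed by enzyme. Of 26 genes of cholesterol synthesis and its control, 9 were higher and 4 lower (median 0.103, length-removed 0.9998, when 13 were higher and 2 lower). The early and middle enzymes Pmvk, Mvd, Fdps and Fdft1, which carry mevalonate to squalene, went from 5.78 to 62.9, from 8.66 to 30.4, from 20.99 to 310.4 and from 15.6 to 89.7. Fdps was 14.8-fold higher (13.98 to 15.6). Hmgcs1, an early synthase of the pathway, went from 15.7 to 21.9, and Srebf2, the factor that drives the pathway, from 24.1 to 15.2. Insig2, which restrains SREBP processing, went from 6.71 to 1.04. In wild type 19 of the genes on the list were lower and 1 higher (median −1.92). Fatty acid genes did not share this: 9 of 14 were lower and 1 was higher (median −1.23, length-removed −0.37), with Fasn, fatty acid synthase, from 82.03 to 15.6, Acly, which supplies its acetyl-CoA, from 48.9 to 15.9 and the elongase Elovl6 from 1.797 to 7.53.

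**Figure D3:**
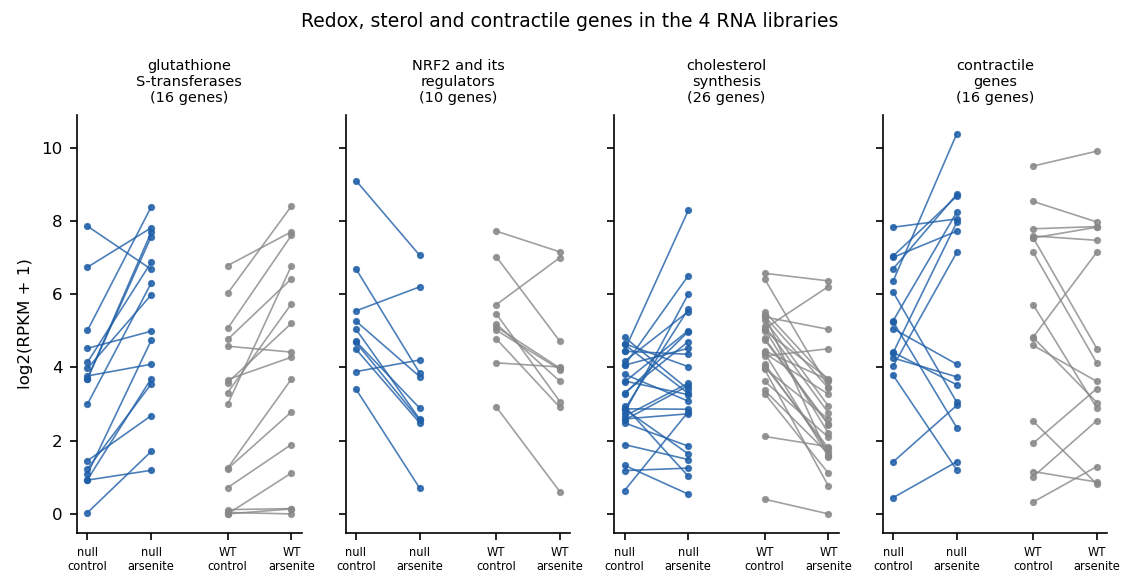
Levels as log2(RPKM + 1) (vertical axis) in the 4 RNA libraries for glutathione S-transferases, NRF2 and its regulators, cholesterol synthesis genes and contractile genes, 1 line per gene, null in blue and wild type (WT) in grey. The median log2 ratios in the null were 2.16, −2.03, 0.103 and 0.85, against 1.36, −1.35, −1.92 and −0.204 in wild type.

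Contractile genes were more often higher than lower. Of 16 genes 7 were higher and 3 lower (median 0.85, length-removed 1.45). Acta2, smooth muscle alpha-actin, went from 80.5 to 1328 and was 16.5-fold higher (16.1 to 16.9). Tagln (SM22), Myl9, a regulatory myosin light chain, and Tpm2, a tropomyosin, went from 20.03 to 248, from 15.3 to 139.8 and from 37.5 to 300.3. Myh9 and Myh10, the nonmuscle myosin heavy chains, went from 65.7 to 7.28 and from 37.1 to 4.12. The skeletal muscle marker Des went from 0.358 to 1.68, and Myod1 and Myog were listed at 0. Srf, the factor that binds the promoters of this group, went from 20.3 to 10.5, and its coactivators Mrtfa and Mrtfb from 18.1 to 12.4 and from 12.8 to 1.302.

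Matrix genes were mostly lower on the deposited scale, and the sign of the collagen median depended on gene length. Of 15 collagens 8 were lower and 1 higher, but the median of −1.26 became 0.096 with the length trend removed. Among the collagens 3 passed only through the control. Col1a1 and Col1a2, the chains of type I collagen, went from 133 to 72.2 and from 206 to 50.9, and Col6a2 from 10.4 to 25.6. Of 21 glycoproteins and elastic fiber genes 13 were lower and 3 higher (median −1.79, length-removed −0.28). Fn1, fibronectin, went from 1411 to 53.6, Nid1, the basement membrane linker nidogen, from 87.9 to 2.48 and Thbs1, thrombospondin 1, from 119 to 4.49. Length-removed, the log2 ratios of these 3 were still −3.203 or below. Efemp2 (fibulin 4), which helps assemble elastin, went from 69.4 to 257.

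Enzymes that modify or cut matrix were mixed. Of 14 hydroxylases and lysyl oxidases 3 were higher and 3 lower (median 0.087, below 0 when only genes of at least 5 RPKM were kept); length-removed, 7 were higher and 4 lower (median 0.98). Lox, the main crosslinking oxidase, went from 103 to 18.97, Loxl3 from 4.49 to 19.1 and P4ha1, a prolyl hydroxylase subunit, from 20.2 to 69.2. Of 19 proteases and inhibitors 3 were higher and 6 lower (median −0.39, length-removed 0.12). Adamts1, which cuts proteoglycans, went from 82.05 to 1.33 and the inhibitor Timp3 from 457 to 22.5. Timp1, the secreted inhibitor, went from 147 to 1239, and the stromelysins Mmp3 and Mmp10 from 0.602 to 9.88 and from 0.108 to 6.22. Mmp3 and Mmp10 passed the filter only through the arsenite library and could hardly be lower. Vcan, the large proteoglycan versican, went from 40.03 to 2.17, and the small proteoglycan Bgn from 528 to 1070.5.

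Adhesion and growth factor genes were more often lower than higher on the deposited scale, as were all genes (40.5% lower and 16.5% higher). Of 12 integrin and dystroglycan genes 8 were lower and 1 was higher, but their median of −1.13 was 0.044 length-removed. Of the 12, 3 passed only through the control. Dag1, dystroglycan, went from 26.4 to 0.535, and Ilk, integrin-linked kinase, was the higher one, from 21.9 to 102. Of 14 genes of the YAP and TAZ pathway 10 were lower and none higher (median −1.38, length-removed −0.49). Here 3 passed only through the control, Lats1 and Lats2 among them, and could hardly be higher. The scaffold Amotl2 went from 101 to 4.55, the kinases Lats1 and Lats2 from 17.03 to 0.726 and from 17.2 to 0.6801, and the secreted target Ccn1 from 77.7 to 115.

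The TGF-beta receptors Tgfbr1 and Tgfbr2 went from 15.4 to 0.554 and from 34.2 to 4.57, and the signal carrier Smad2 from 19.5 to 1.26. Ligand Tgfb3 was the 1 of 13 genes that was higher, from 3.53 to 8.88, and 8 were lower (median −1.82, length-removed −0.83). Tgfbr1 was 1 of 3 genes of this list that passed only through the control. Of 15 BMP pathway genes 9 were lower and none higher (median −1.901, length-removed −0.62), and 3, Bmpr2 included, passed only through the control. Grem1, a secreted BMP antagonist, went from 133 to 4.24, the receptor Bmpr2 from 8.45 to 0.0947, and the target genes Id1 and Id2 from 32.2 to 59.6 and from 47.03 to 9.15. The 2 Id genes thus lay on opposite sides of equality.

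Inflammatory genes did not share a direction. Of 11 chemokines 5 were higher and 3 lower (median −0.17, above 0 with either rescaling and −0.95 length-removed). Only through the arsenite library passed 2 of them, Ccl9 included, and 2 others only through the control. Ccl9, Ccl7 and Cxcl1, attractants of myeloid cells, went from 0.523 to 14.6, from 14.5 to 59.1 and from 49.4 to 154, and Cxcl12, the stromal ligand of CXCR4, from 87.04 to 15.7. Of 19 NF-kB pathway and cytokine genes 10 were lower and 1 was higher (median −1.04, length-removed −0.16). The higher one was Nfkbia, the inhibitor IkB-alpha, from 44.4 to 177. Nfkb1, which encodes p105 and p50, went from 23.9 to 1.64, and Ptgs2 (COX-2), the inducible prostaglandin synthase, from 39.2 to 8.53. Beside these values, 3 of 12 leukocyte markers passed the filter: Cd14 went from 1.16 to 1.71, Lyz2 from 1.16 to 2.99 and Cd68 from 2.02 to 5.56, and Adgre1 was listed at 0 in both libraries.

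Among the early transcription factors, 6 of 13 genes of a list of AP-1, EGR and NR4A genes that also holds Myc were lower and none higher (median −0.67, length-removed −0.61). Myc went from 149.7 to 6.66, Jun, an AP-1 subunit, from 12.4 to 1.87, Fosl2 from 44.4 to 6.33 and Egr1 from 12.8 to 21.3. Of 13 Kruppel-like factors 8 were lower and none higher (median −1.67, length-removed −0.999), and 6 passed only through the control. Klf4, a zinc finger transcription factor that also serves in reprogramming to pluripotency, was covered by 22853 control reads and 34 arsenite reads. It went from 116 to 0.939 RPKM, had the lowest log2 ratio of all genes ranked, −5.91, and was 123-fold lower (88.3 to 178). Dusp4, a nuclear MAP kinase phosphatase, went from 27.8 to 1.35.

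Histone acetyltransferases, demethylases and methyltransferases were lower more often than all genes on the deposited scale, but methyltransferases not so length-removed, and deacetylases on neither scale. Many of these genes are long: the median length was 7418 bases for acetyltransferases and 7111 for demethylases, against 1535 for ribosomal proteins. Of 14 histone acetyltransferases 11 were lower and none higher (median −2.37); length-removed, 6 were lower and 0 higher (median −0.88). Of these, 7 passed only through the control. Ep300, which encodes p300, had 13692 reads and 24.2 RPKM in the control against 58 reads and 0.558 RPKM with arsenite, and Crebbp, its paralog CBP, went from 18.1 to 0.998. Kat5 and Hat1, which acetylate histone H4, were within 2-fold, from 50.5 to 48.5 and from 6.48 to 5.78. Of 18 lysine demethylases 17 were lower (median −1.68, length-removed −0.49, when 7 were), 7 of them having passed only through the control, and Kdm4a went from 47.4 to 2.21.

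Of 26 lysine methyltransferases 15 were lower and 1 was higher (median −1.54, length-removed −0.18), and 7 passed only through the control. Setd2, the H3 lysine 36 enzyme, went from 17.97 to 1.18, and Ezh2, the H3 lysine 27 enzyme of Polycomb, from 4.36 to 1.94. Deacetylases and sirtuins numbered 17, of which 5 were lower and none higher (median −0.71, which was 0.31 length-removed). Sirt1 and Hdac4 were among 3 of them that passed only through the control. Sirt1 went from 18.03 to 0.142 and Hdac4 from 18.8 to 0.535, whereas Hdac3, of the NCoR complex, was level, from 21.5 to 21.4. Of Dot1l and its partners in elongation complexes, 9 of 15 were lower and none higher (median −1.59, length-removed −0.78). Aff4 and Mllt10 were among 3 of these that passed only through the control. Aff4, the scaffold of the super elongation complex, went from 32.9 to 0.663, Mllt10 (AF10), which binds DOT1L directly, from 11.2 to 0.4703, and the kinase Cdk9 from 18.5 to 10.2.

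Splicing factors were lower almost without exception: 22 of 23 SR and hnRNP genes were lower and 0 higher (median −2.04; length-removed, 14 lower, median −1.22). Hnrnph1 went from 79.6 to 3.501 and was 22.7-fold lower (20.03 to 25.9). Srsf2, Hnrnpk and Hnrnpu, which bind exons and nascent transcripts, went from 141 to 24.4, from 134 to 18.8 and from 108 to 19.4. In wild type 7 of the same genes were lower (median −0.73). Myc and genes that build ribosomes numbered 21 together, of which 14 were lower and none higher (median −1.39, length-removed −0.55). Npm1, nucleophosmin, went from 677 to 109, Ncl, nucleolin, from 317 to 113 and Polr1a, the largest subunit of RNA polymerase I, from 62.8 to 7.16.

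Growth control genes showed no single direction. Trp53, which encodes p53, went from 70.9 to 24.6, and 13 of 23 targets were lower and 3 higher (median −1.26, length-removed −0.49). Mdm2, the ligase that degrades p53, went from 72.9 to 23.96, Gadd45a, a growth arrest protein, from 144 to 20.1, and the proapoptotic Bax from 256 to 772. Cdkn1a, which encodes the cyclin kinase inhibitor p21, was within 2-fold, from 143 to 168, whereas Cdkn2a (p16 and p19ARF) and Cdkn2d (p19INK4d) were higher, from 40.1 to 194 and from 1.63 to 29.3. Of 29 replication genes 8 were lower and 4 higher (median −0.24, above 0 with either rescaling and length-removed). The helicase subunit Mcm4 went from 34.7 to 4.29, and Tk1, thymidine kinase, from 1.08 to 19.7. Mitosis genes were similarly split (8 lower and 4 higher of 24, and 4 and 5 length-removed). All genes as deposited stood at 40.5% lower and 16.5% higher. Anln, the anillin of the cleavage furrow, went from 23.98 to 1.49 and Birc5, survivin, from 4.55 to 26.3.

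Genes of the ribosome, the respiratory chain and the proteasome were more often higher than lower. Of 47 cytosolic ribosomal protein genes 39 were higher and none lower (median 1.53, length-removed 1.11). The list took 5.56% of the reads in the control and 16.2% with arsenite. Rps24 and Rpl28, of the small and large subunit, went from 1113 to 9703 and from 583 to 3926. Of 51 mitochondrial ribosomal proteins 24 were higher and 4 lower (median 0.999, length-removed 0.68).

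Nuclear subunits of respiratory complex I numbered 36, of which 27 were higher and 1 lower (median 1.67; length-removed, 16 higher and 1 lower, median 0.76). Ndufa5 and Ndufs6, small accessory subunits, went from 22.9 to 282 and from 30.4 to 276, and Ndufs1, the large iron-sulfur subunit, was the lower one, from 21.97 to 3.95. Of 13 cytochrome c oxidase subunits 10 were higher (median 1.73), but their median length-removed was 0.15, and 2 passed only through the arsenite library. Cox6b1 went from 143 to 1332, and the tissue-specific Cox6a2 was lower, from 18.4 to 3.198. Of 31 proteasome subunits 12 were higher and 2 lower (median 0.42, length-removed 0.93), with Psmb2, a core subunit, from 61.5 to 315 and Psmc6, an ATPase of the cap, from 89.4 to 24.005.

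The S100 genes, which encode small calcium-binding proteins, had among the highest ratios. Of 12 symbols on the list 9 were higher and 1 lower (median 3.21, length-removed 1.95), and 2 passed only through the arsenite library. S100a13 was covered by 410 control reads and 3132 arsenite reads. It went from 8.86 to 369 RPKM and was 41.6-fold higher (37.5 to 46.2). S100a11, S100a6 and S100a4, which are abundant in fibroblasts, went from 379 to 10101, from 1367 to 13008 and from 949 to 10957.

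Several RNA polymerase III and other small unpolyadenylated RNAs were also higher. Of the 7 on the list that passed, 4 (Vaultrc5, Rpph1, Rny3 and Rnu11) did so only through the arsenite library, where a lower value could hardly be seen; the others were Rn7sk, the RNA that holds the elongation kinase P-TEFb inactive, from 3.88 to 169.6, Rmrp, of an RNase that cuts ribosomal precursors, from 1.71 to 40.4, and the Y RNA Rny1 from 1.104 to 12.8. Vaultrc5 had 0 control reads and 87 arsenite reads, at least 158-fold higher against a floor of 3 reads. Replication-dependent histones, whose messages also lack the tail, had 6 of 11 higher and 0 lower (median 1.28), but a median of −0.298 once the length trend was removed, and 8 of them passed only through the arsenite library. The molecule label says polyA RNA and the extraction protocol describes removal of ribosomal RNA; whether selection differed between the libraries, and its part in these values, was not tested.

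**Figure D4:**
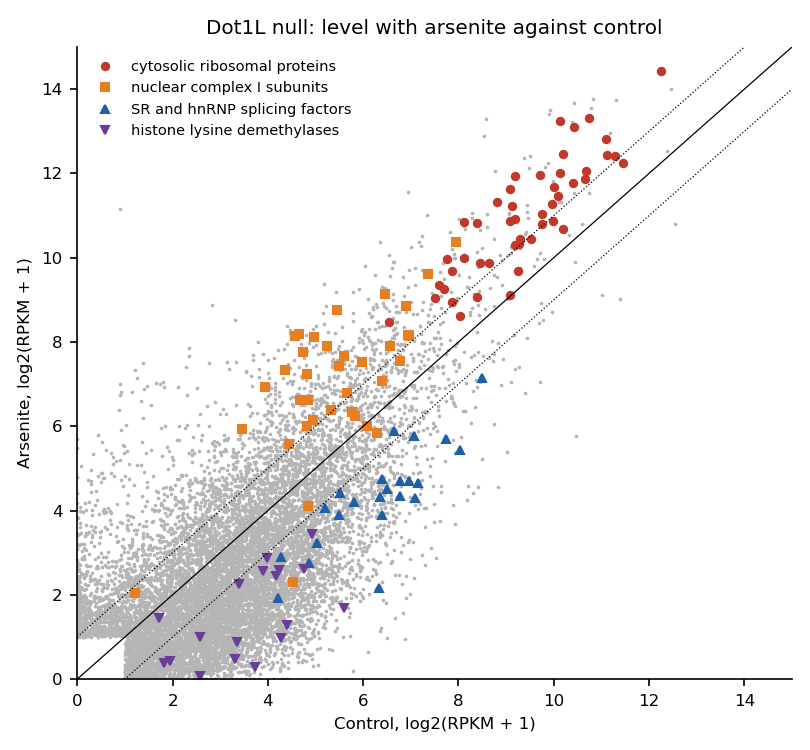
Levels with arsenite (vertical axis) against control (horizontal axis) in Dot1L null cells, both as log2(RPKM + 1), 1 grey point per gene, with the line of equality and dotted lines at 2-fold. Ribosomal proteins (red, 39 of 47 higher) and complex I subunits (orange, 27 of 36 higher) lie mostly above the line, and splicing factors (blue, 22 of 23 lower) and demethylases (purple, 17 of 18 lower) below it.

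Classes of transcript differed too. Of 198 genes that RefSeq calls pseudogenes, 154 were higher and 18 lower. Length-removed, 82 of 180 were higher and 31 lower. Their median count was 9 reads in the control and 39 with arsenite. A pseudogene that passed the filter only through the arsenite library could hardly be lower. Reads of pseudogenes can also be shared with a parent gene. Of 111 small nucleolar RNAs 68 were lower and 16 higher, but their median count was 21 reads in the control and 0 with arsenite. For a gene of 100 bases 1 read is worth 0.842 RPKM in the arsenite library, so differences among such RNAs were not detectable there at this depth unless large.

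Across all named genes, the highest log2 ratios after Rps27rt, Vaultrc5, S100a13 and Rn7sk were those of Rpl37rt, S100a11, Guca1a, a calcium sensor of photoreceptors (0.9405 to 45.8), Scarletltr, an erythroid long noncoding RNA (0.963 to 45.3), Ifi27l2a, an interferon-induced mitochondrial protein (0.968 to 40.5), Pet100, a cytochrome oxidase assembly factor (7.81 to 184), Rpph1, the RNA of RNase P (0.678 to 33.2), and Myl6, a myosin light chain (369 to 7518). Rps27rt and Rpl37rt are near copies of ribosomal protein genes, and their values are uncertain. Without the length trend the highest were Cfap100 (0.341 to 18.02), Mgst2, Tk1, Lsp1, a leukocyte actin-binding protein (4.37 to 52.3), and Plekha2, a phosphoinositide-binding adaptor (3.01 to 32.9). Genes that overlap on opposite strands cannot be told apart here, since the strand setting of the counting is not given in the sources used here.

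The lowest after Klf4 and Cth were Ipo7, a nuclear import receptor (89.7 to 0.972), Aldh1l2, the mitochondrial formyltetrahydrofolate dehydrogenase (67.5 to 0.572), Atf3, Ankrd11, a chromatin regulator (101 to 1.75), Adamts1, Slc7a1, Dhx15, a splicing helicase (125 to 3.05), Tnks, tankyrase (32.2 to 0.261), and Zfp146, a zinc finger protein (51.97 to 1.02). Of these, Cth, Klf4, Atf3, Ipo7, Zfp146 and Dhx15 were also among the 10 lowest without the length trend. Foxf1, a forkhead factor of mesenchyme, led that ranking, from 20.4 to 0.317 RPKM, with 701 control reads and 2 arsenite reads. Its place rests on a recovered length of 531 bases. That place is uncertain, since a true length that is a multiple of it would give a less negative value. Styx, a pseudophosphatase, had 571 control reads and 0 arsenite reads, at least 34.9-fold lower against the same floor. The most abundant genes with arsenite were Rplp1 (4882 to 22090.1), Rps12 (5654 to 16304), Rps26 (1815 to 13831), Lgals1, the lectin galectin 1 (2522 to 13612), and S100a6, and the highest gene outside ribosomal proteins, S100 genes and Lgals1 was Fth1.

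Set beside wild type, where 1492 of the same genes were higher (12.9%) and 4143 lower (35.9%; median −0.55), several groups of the null had other medians. The difference between the pairs could not be tested with single libraries. Amino acid transporters stood at −2.91 in the null and −1.84 in wild type, serine and one-carbon enzymes at −2.43 and −0.79, splicing factors at −2.04 and −0.73, and NF-kB genes at −1.04 and −2.08. Contractile genes stood at 0.85 and −0.204, and cholesterol genes at 0.103 and −1.92. Acta2 was at 721 and 956 in the wild-type pair, Fdps at 93.9 and 81.2, Cth at 44.2 and 14.9, and Psph at 26.9 and 33.95. Metallothioneins (Mt1 log2 2.89 and 2.63), ribosomal proteins (1.53 and 1.99), S100 genes (3.21 and 2.48) and Kruppel-like factors (−1.67 and −2.07) had the same sign in both pairs.

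**Figure D5:**
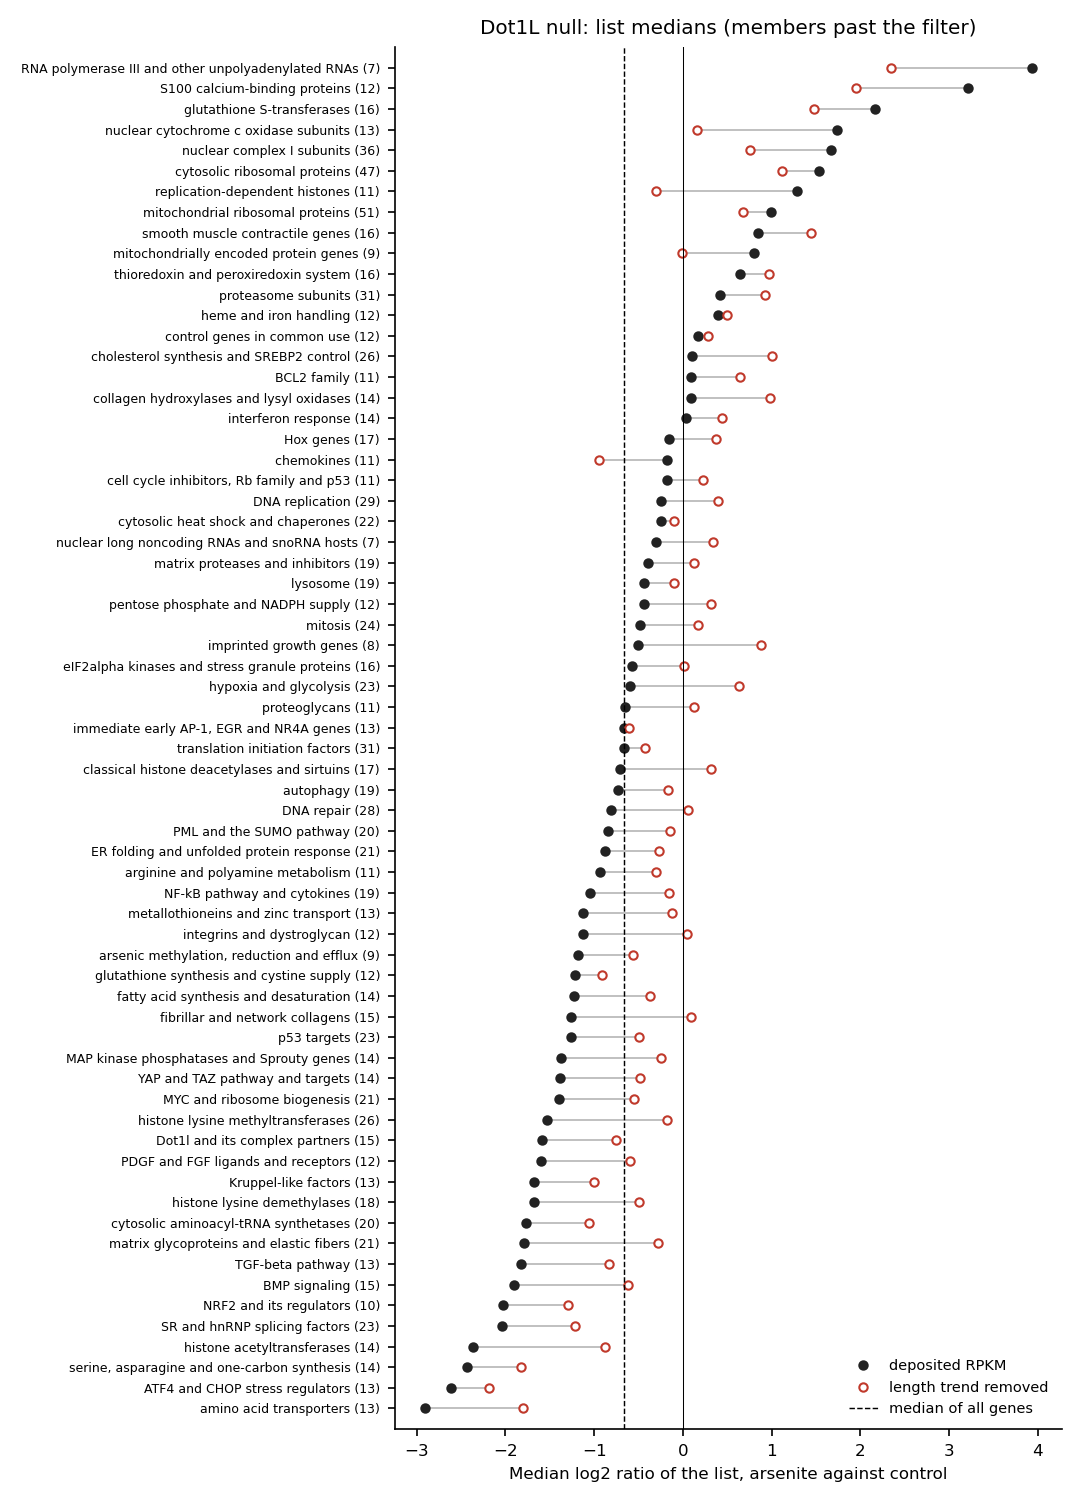
Median log2 ratio of arsenite to control in Dot1L null cells (horizontal axis) for each gene list with at least 3 genes past the filter (vertical axis, number of genes in brackets), as deposited (filled) and with the length trend removed (open red). The dashed line is the median of all genes, −0.66; amino acid transporters are lowest at −2.91 and unpolyadenylated RNAs, 4 of which passed only through arsenite, highest at 3.93.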

How the data were processed

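RNA-seq was available for 4 libraries: Dot1L null and wild-type fibroblasts, each untreated or exposed to arsenite. Stranded dUTP libraries were made after removal of ribosomal RNA, per the labels' protocols, whereas the molecule label reads polyA RNA. TopHat, HTSeq, Bowtie, deepTools and build mm10 are named in the submitters' processing notes. The authors deposited RPKM values for 37224 Ensembl gene IDs. No annotation, strand setting or version is given in the sources used here. Symbols were found for 35449 IDs, and positions and promoters are RefSeq's for GRCm38.p6.

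RPKM values move in whole-read steps. The number of reads divided by was taken as the most frequent inverse of RPKM times span over small RNA genes, and a gene's length as the shortest that made its reads whole within a relative tolerance of 1e-12; the true length may be a multiple of it. In 359 of 539 small RNA genes the length equalled the span. Recovered reads summed to 98.3% of that number in the null control and 98.2% with arsenite, and were used only for intervals, length and thinning.

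Log2 ratios used a pseudocount of 1 RPKM, which understates differences of low genes. Genes with at least 1 RPKM in either null library were kept. The length trend (lowess, fraction 0.3) was fitted over genes of at least 200 bases. Counting intervals (95%) of a read ratio are exact Clopper-Pearson, conditional on the summed reads, and a count of 0 was set to a floor of 3 reads. No test was run. The scripts were tested on simulated data. Python 3.11.15, NumPy 2.4.6, pandas 2.3.3, SciPy 1.17.1 and statsmodels 0.14.6 were used.

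The members, the 66 gene lists (1366 of 1379 symbols matched), the 10 marker lists and the alternatives were chosen with earlier results of these data known. Named were the 15 highest and 15 lowest log2 ratios, the 10 highest and 10 lowest without the length trend, the 15 highest levels with arsenite, the largest differences in each list (up to 6 members, or all in lists of at most 13) and the genes Cdkn1a, Cdkn2a, Crebbp, Dot1l, Ep300, Hmox1, Mt1 and Mt2. The rankings left out IDs without a symbol, predicted genes, pseudogenes marked as such in the symbol, and small RNAs whose symbols start with Mir, Snor or Rnu, among others. Vaultrc5, Rn7sk and Rpph1 stayed in. Not every gene so selected is described. Other genes are named for their role, after their values were seen. Alternatives were another pseudocount, other filters, median centring, 75th percentile scaling, removal of the length trend and thinning of the control.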

Additional observations from a re-analysis of the deposited data

Results flagged for a closer look

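Of the genes described here, 5 were past 2-fold in opposite directions in the null and the wild-type pair; over all genes this held for 33 that were higher in the null and lower in wild type and for 12 the other way round. Each pair is a single library against a single library, so the difference between the pairs was not tested. Mvd, which makes isopentenyl diphosphate, went from 8.66 to 30.4 RPKM in the null and from 41.1 to 9.802 in wild type, a log2 ratio higher by 3.66 in the null. Col6a2, a chain of collagen VI, went from 10.4 to 25.6 and from 14.8 to 2.29, a difference of 3.49. Elovl6, the elongase of saturated fatty acids, went from 1.797 to 7.53 and from 6.19 to 2.25, a difference of 2.75. Cox6a2, the muscle form of an oxidase subunit, went from 18.4 to 3.198 in the null and from 3.02 to 35.1 in wild type, a difference of −5.37. S100a7a, a small calcium-binding protein of epithelia, went from 3.21 to 1.02 and from 4.84 to 29.3, a difference of −3.43.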

How the results depend on the processing

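Thinning the control to the arsenite depth left the counts close to their values (1919 higher and 4704 lower). Scaling and length did not: 3186 genes were higher and 2672 lower with the median set to 0, and 2371 were lower without the length trend. The share higher, 29.0%, became 54.4%, 45.02% under 75th percentile scaling and 48.98% when length was removed. The median log2 ratio, −0.66, became −0.81 with a pseudocount of 0.1, −0.083 with no filter and 0.007005 without the length trend. The slope on length, −0.74, became −0.98, −0.96 at an RPKM of at least 5 and −0.42 with no filter.

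Removing the length trend turned the medians of collagens to 0.096, integrins to 0.044 and histones to −0.298, and the log2 ratio of Rps12 to −0.16; the trend's own construction shows this, since these genes are long or, for histones and Rps12, short. Of 70 list medians, 19 had the other sign without the length trend, 15 with the median set to 0, 11 under 75th percentile scaling and 0 with the smaller pseudocount. The cause of the length trend was not tested. No paired analysis was possible because each group held 1 library, and no replicate could be left out for the same reason.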

Other observations

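Genes in common use as expression controls ranged widely between the null libraries. Of 12 such genes 4 were higher and 4 lower (median 0.17; length-removed 0.28). Actb, cytoplasmic beta-actin, went from 718 to 4446 RPKM, Gapdh, a glycolytic enzyme, from 1129 to 2541, and B2m, the light chain of MHC class I, from 189 to 526. Hprt, of purine salvage, went from 102 to 10.3, and Sdha, of the succinate dehydrogenase complex, from 37.6 to 14.4. The lysosomal glucuronidase Gusb was within 2-fold, from 8.03 to 7.38. The log2 ratios of Actb and Hprt were 2.63 and −3.19, and 2.27 and −0.17 in wild type.

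Genes encoded by the mitochondrial genome had no common direction: 4 of 9 were higher and 1 was lower (median 0.796, about 0 length-removed at −0.015). mt-Co1, the catalytic oxidase subunit, went from 2693 to 521, whereas mt-Nd5 and mt-Nd6, of complex I, went from 660.4 to 5318 and from 20.3 to 333. mt-Co2 and mt-Co3, the other mitochondrially encoded oxidase subunits, went from 1.56 to 7.51 and from 0.651 to 1.29, far below mt-Co1 in both libraries. mt-Nd3, mt-Nd4l, mt-Atp6 and mt-Atp8 did not pass the filter. Whether reads of some mitochondrial genes were lost in mapping or counting was not tested, so their values are uncertain.

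Degradation pathways were split. Of 19 lysosomal genes 6 were lower and 1 was higher (median −0.44, above 0 with either rescaling; length-removed −0.099997), with the membrane protein Lamp1 from 843 to 131, the protease Ctsl from 614 to 168 and the protease Ctsz from 111 to 245. Of 19 autophagy genes 8 were lower and 3 higher (median −0.73, length-removed −0.16), and Gabarap, which is conjugated to autophagosome membranes, went from 134 to 656. In polyamine metabolism Odc1, the rate-limiting decarboxylase, went from 237 to 50.04 and its regulator Azin1 from 35.6 to 1.31. Sat1, which acetylates polyamines, went from 49.9 to 15.6.

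The interferon response was mixed: 5 of 14 genes were higher and 2 lower (median 0.038, length-removed 0.44), with Ifit2 from 9.36 to 0.429 and Ifi35 from 5.07 to 24.9. Among 17 Hox genes, which mark position along the body axis, 3 were higher and 2 lower (median −0.16, above 0 with either rescaling and 0.38 length-removed). Of the 17, 3 passed only through the arsenite library and 3 only through the control. Hoxc9, which passed only through arsenite, went from 0.2799 to 4.19, and Hoxb9 from 37.7 to 19.9. Of the hypoxia and glycolysis genes, Hif1a, the oxygen-regulated factor, went from 60.3 to 2.64, Hk2, hexokinase 2, from 37.7 to 2.397, and Gpi1, the isomerase that follows it, from 73.8 to 218.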
